A study of Mus musculus with 5 samples.

Results

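Integrins are surface receptors made of 1 alpha and 1 beta chain, through which a T cell holds on to other cells and to matrix. The integrin genes described here are 10 genes chosen by name from the 55487 genes counted in thymic CD4 single positive (SP) cells. The rule used no measured value, but the names were picked with earlier results of these data known. They are 6 alpha genes (*Itgae*, *Itga4*, *Itgal*, *Itga1*, *Itga6* and *Itgav*) and 4 beta genes (*Itgb7*, *Itgb1*, *Itgb2* and *Itgb3*). RNA was sequenced by SMART-seq, which copies full-length cDNA from little RNA, with 3 wild type (WT) and 2 *Tet2/3* DKO mice giving 1 library each. All 5 mice were C57BL/6J and 21 to 30 days old by the study's methods. WT mice are given as wild type with no further allele. *Tet2/3* DKO mice were Tet2-/-Tet3flx/flxCD4cre, with *Tet2* deleted in the germline, whereas *Tet3* is deleted only in cells that have expressed the CD4-driven Cre, from the CD4 CD8 double positive (DP) stage of the thymus on. TET2 and TET3 oxidize methylated cytosine in DNA. The cells were CD24-low thymocytes sorted live as CD4+, TCRβ+ and CD8-, with the iNKT cells that bind a lipid-loaded CD1d tetramer left out.

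The best known leukocyte integrin is LFA-1, the pair of αL (*Itgal*) and β2 (*Itgb2*), which binds ICAM proteins on the partner cell in an immune synapse. The β7 chain (*Itgb7*) pairs with αE (*Itgae*, CD103) to bind E-cadherin on epithelium, or with α4 (*Itga4*) to bind MAdCAM-1 in gut vessels. The β1 chain (*Itgb1*) pairs with α1, α4, α6 and others for collagen, VCAM-1 and laminin, and αv pairs with β3 and other beta chains for vitronectin, osteopontin and the latent form of TGF-β. In the thymus CD103 is known from CD8 SP cells and some regulatory and innate-like T cells, and TGF-β signalling raises its gene in T cells.

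The 2 subunit genes of α4β7 are shown by their promoters, because both belong to the gut-homing pair and their levels lay on opposite sides of WT in the *Tet2/3* DKO libraries. Promoters from RefSeq (GRCm38.p6), each 250 bases before and 50 bases after the gene's start, were found for 5 of the 10 genes, *Itgb7*, *Itga4*, *Itgb1*, *Itga1* and *Itgav*. The *Itgb7* promoter is at chr15:102231886-102232185 on the minus strand and the *Itga4* promoter at chr2:79255176-79255475 on the plus strand. Capitals mark each CG, the dinucleotide at which most DNA methylation, the substrate of TET enzymes, is placed. CG reads the same on both strands.
Itgb7: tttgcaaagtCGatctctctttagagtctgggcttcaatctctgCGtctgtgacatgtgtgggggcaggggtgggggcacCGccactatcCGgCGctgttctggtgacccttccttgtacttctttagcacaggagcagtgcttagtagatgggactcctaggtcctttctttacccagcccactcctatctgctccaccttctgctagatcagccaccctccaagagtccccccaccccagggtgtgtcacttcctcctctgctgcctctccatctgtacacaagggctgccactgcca
Itga4: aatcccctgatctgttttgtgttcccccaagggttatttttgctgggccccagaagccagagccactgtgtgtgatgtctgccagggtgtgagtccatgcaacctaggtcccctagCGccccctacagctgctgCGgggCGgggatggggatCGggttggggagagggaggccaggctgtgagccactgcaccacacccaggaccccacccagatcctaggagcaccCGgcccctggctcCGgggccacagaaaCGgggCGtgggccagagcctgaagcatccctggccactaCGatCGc
The *Itgb7* promoter holds 5 CG in 300 bases and 38% of the 32851 promoters in the table hold fewer. The *Itga4* promoter holds 10, with 56.5% of promoters holding fewer. The other promoters hold more, with 12 for *Itga1*, 24 for *Itgav* and 27 for *Itgb1*, against a median of 7. At least 1 CG is present in 94.6% of promoters, so the count describes these windows and says nothing of their methylation, which was not analysed here.

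Libraries held between 17607089 and 27267031 reads on genes, a depth at which 3 counts correspond to between 0.109 and 0.168 CPM (counts scaled by library size and TMM factor). Reads on no annotated gene made up 5.70% of *Tet2/3* DKO replicate 1 and 3.51 to 3.72% of every other library. *Tet3* had 1133, 1082 and 1440 counts in WT against 419 and 235 in *Tet2/3* DKO mice (log2 fold change -1.50, SE 0.18, adjusted p = 0.00121). *Tet2* had 1355, 1286 and 1585 counts against 1919 and 1048, or 52.4, 54.2 and 57.8 CPM against 91.5 and 58.6. Its log2 fold change was 0.46 (SE 0.17, adjusted p = 0.135), and gene counts cannot show a missing exon. The sex given for 2 libraries does not match their counts. WT replicate 1, female in the labels and male in the paper, had 0 *Xist* counts and 6821 counts on 4 Y genes, and *Tet2/3* DKO replicate 1, male in both, had 744 and 7. *Itgae*, *Itga6* and *Itgb3*, the integrin genes past the threshold, are therefore also given without each of these libraries. Sums of CD4 SP markers lay between 14728 and 15844 CPM in WT and at 14722 and 12458 CPM in *Tet2/3* DKO cells, and of the 10 markers *Cd4* (log2 fold change -0.67, adjusted p = 0.00950) and *Cd5* (-1.28, adjusted p = 8.57e-05) fell. The 6 genes of the DP stage summed to between 29.0 and 39.8 CPM in WT and to 21.1 and 21.3 in *Tet2/3* DKO cells, mostly from *Dntt* and *Cd24a*, while *Rag1* and *Rag2* had at most 1 count in any library.

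The integrin genes moved in both directions between the genotypes. *Itgae* rose 6.18-fold in the *Tet2/3* DKO genotype, and *Itga6* and *Itgb3* fell by more than 2-fold. Past an adjusted p of 0.01 there were 3 of the 9 integrin genes with enough reads to test, beside 3.92% of all 13525 genes tested, with 2.42% higher and 1.50% lower. At an adjusted p of 0.05, 5 of the 9 passed beside 8.67% of all genes, and DESeq2 at 0.01 also gave 5 of the 9, beside 6.91%. In 8 of the 9 the *Tet2/3* DKO libraries lay wholly outside the WT range, 4 above and 4 below, beside 39.1% of all genes, with 19.6% above and 19.5% below. The median log2 fold change was 0.40 over the 9 genes and 0.0076 over all genes tested. In bulk RNA a change in the number of cells that carry a transcript and a change in the amount per cell cannot be told apart.

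**Figure D1:**
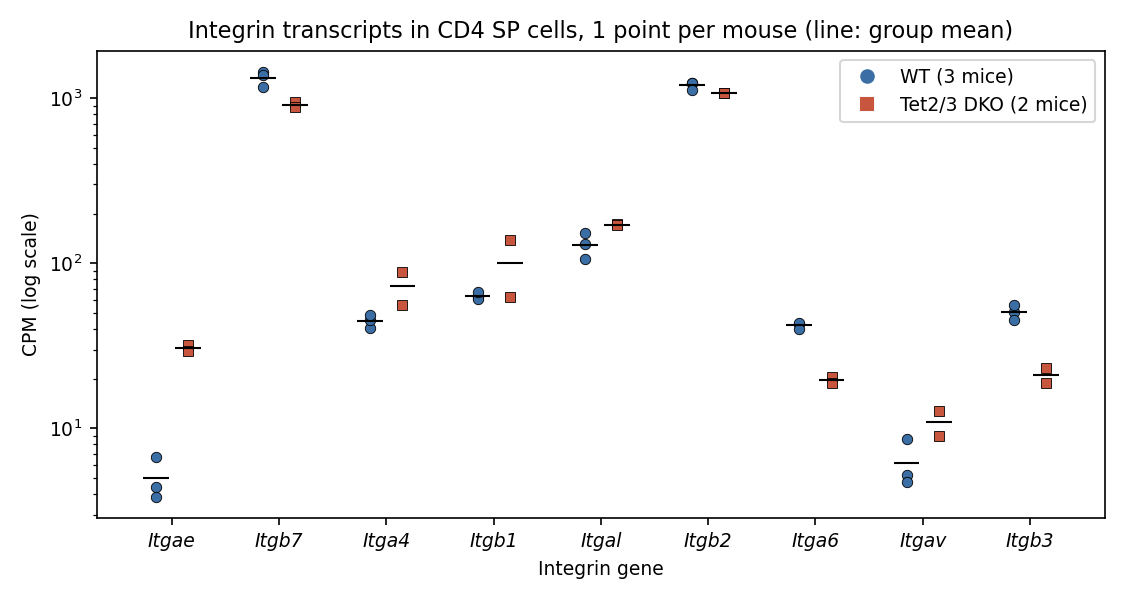
CPM on a log axis for 9 integrin genes, with 1 point per mouse, circles for WT, squares for *Tet2/3* DKO and a line at each group's mean. *Itgae* went from a mean of 5.01 to 30.7 CPM, *Itga6* and *Itgb3* lay lower in both *Tet2/3* DKO mice, and the 2 *Tet2/3* DKO mice stood apart from each other for *Itgb1*.

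Levels were compared between genes as RPKM, the CPM divided by the length of the gene's exons in kilobases. In WT cells the order was led by the beta chains of the leukocyte integrins, *Itgb7* at 479 ± 51.3 RPKM (SD, n = 3) and *Itgb2* at 391 ± 23.0. *Itgal* (19.7 ± 3.46) and *Itgb1* (15.6 ± 0.842) followed with overlapping libraries. Next came *Itgb3* (8.60 ± 0.904), *Itga6* (4.68 ± 0.218), *Itga4* (3.21 ± 0.278), *Itgae* (1.09 ± 0.333) and *Itgav* (0.576 ± 0.196), and none of these overlapped its neighbour. *Itga1* was last at 0.0125 RPKM. In *Tet2/3* DKO cells *Itgb2* (353 ± 0.668 RPKM, SD, n = 2) stood above *Itgb7* (330 ± 14.7), and *Itgae* moved from place 8 to place 5 at 6.70 ± 0.340 RPKM. *Itga6* (2.18 ± 0.116) went from place 6 to 8 and *Itgb3* (3.56 ± 0.524) from 5 to 7. The places of close neighbours depend on the length used. Divided by the longest transcript instead, the level of *Itga6* is 2.09 times as high, so that in WT it stood above *Itgb3* (9.79 against 8.77).

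*Itgae* (ENSMUSG00000005947, chromosome 11 of GRCm38 from 73090583 to 73147446, plus strand) encodes αE, which binds E-cadherin. It had 100, 160 and 121 counts in WT against 667 and 529 in *Tet2/3* DKO mice. As CPM these are 3.87, 6.74 and 4.41 against 31.8 and 29.6. Both *Tet2/3* DKO mice thus had more than 4 times the level of the highest WT mouse. Mean levels were 5.01 ± 1.53 CPM (SD, n = 3) and 30.7 ± 1.56 (SD, n = 2), a log2 fold change of 2.63 (SE 0.21, 95% interval 2.16 to 3.09, adjusted p = 0.000118). *Itgae* ranked 46 of all genes by p-value. It stayed past the threshold in all 16 alternative analyses, between 2.47 and 2.89 on the log2 scale, leaving out each library included. *Haspin*, a kinase gene that lies within *Itgae* on the opposite strand without sharing exon bases, had 809, 698 and 810 counts in WT against 436 and 456 in *Tet2/3* DKO mice (log2 fold change -0.38, adjusted p = 0.124).

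The genes whose profile over the 5 libraries lay nearest to that of *Itgae* were *Gm21909*, *5930412G12Rik* and *Gm49417*, with root mean square differences of 0.13, 0.17 and 0.19 on centred log2 CPM. All of these are of low level, at most 2.77 CPM in any library.

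*Itgb7* (ENSMUSG00000001281, chromosome 15 from 102215995 to 102231944, minus strand) encodes the only beta chain known to pair with αE. It had 37228, 32578 and 32035 counts in WT against 19752 and 15800 in *Tet2/3* DKO mice, or 1440, 1373 and 1167 CPM against 942 and 884. The groups did not overlap and *Itgb7* lay lower, while its partner *Itgae* was higher. The means of 1327 ± 142 and 913 ± 40.8 CPM gave a log2 fold change of -0.54 (SE 0.10, 95% interval -0.77 to -0.31, adjusted p = 0.0121), which missed the threshold of 0.01. It passed in 9 of 16 alternative analyses, the looser threshold of 0.05 itself included, and was furthest from passing without WT replicate 1 or 2 (adjusted p = 0.0681 and 0.0709).

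*Itga4* (ENSMUSG00000027009, chromosome 2 from 79255426 to 79333123, plus strand) encodes α4, the chain shared by α4β7 and α4β1. It had 1053, 1075 and 1330 counts in WT against 1865 and 1000 in *Tet2/3* DKO mice, or 40.7, 45.3 and 48.5 CPM against 88.9 and 55.9. Both *Tet2/3* DKO mice lay above WT but 1.59-fold apart from each other, and the change of 0.70 (SE 0.18, 95% interval 0.29 to 1.10, adjusted p = 0.0428) did not pass. Its size rested on *Tet2/3* DKO replicate 1, since it was 0.32 without that library and 0.97 without replicate 2. Each of these fits held 1 *Tet2/3* DKO mouse. Of its exon bases 8.04% overlap *Cerkl* on the other strand.

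Set against their common partner, the transcripts of αE and α4 stood further from WT than by their own levels. Per 100 RPKM of *Itgb7* there were 0.162, 0.297 and 0.228 RPKM of *Itgae* in WT against 2.04 and 2.02 in *Tet2/3* DKO libraries, a ratio of means of 8.87. For *Itga4* the values were 0.561, 0.654 and 0.823 against 1.87 and 1.25. Neither ratio overlapped between the genotypes. The sum of both alpha transcripts came to 0.908 per 100 of *Itgb7* in WT and 3.60 in *Tet2/3* DKO cells on average, so β7 mRNA was in large excess in both. With 3 against 2 libraries an exact permutation test (two-sided) cannot give a p below 0.1, and both ratios gave 0.1. Levels of mRNA are not levels of protein on the surface.

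*Itga6* (ENSMUSG00000027111, chromosome 2 from 71745616 to 71858416, plus strand) encodes α6, a laminin receptor chain with β1 or β4. It had 1114, 1034 and 1096 counts in WT against 429 and 339 in *Tet2/3* DKO mice, or 43.1, 43.6 and 39.9 CPM against 20.5 and 19.0. Both groups were tight and far apart. The means were 42.2 ± 1.97 and 19.7 ± 1.05 CPM, with *Itga6* 2.14-fold lower in *Tet2/3* DKO cells (log2 fold change -1.10, SE 0.12, 95% interval -1.37 to -0.82, adjusted p = 0.000888). The call was lost narrowly with WT replicate 1 or 2 left out (adjusted p = 0.0114 and 0.0111), at log2 fold changes of -1.08 and -1.07. Nearest in profile were *Akap12*, *Galnt6* and *Vim*, at root mean square differences of 0.0537, 0.0565 and 0.0582. *Vim*, which encodes vimentin, an intermediate filament protein, had between 789 and 894 CPM in WT against 436 and 370 in *Tet2/3* DKO libraries.

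*Itgb1* (ENSMUSG00000025809, chromosome 8 from 128685654 to 128733200, plus strand) encodes β1, the partner of α6, α4 and α1. It had 1605, 1449 and 1851 counts in WT against 1308 and 2475 in *Tet2/3* DKO mice, or 62.1, 61.1 and 67.4 CPM against 62.4 and 138. One *Tet2/3* DKO mouse lay within WT and the other at 2.22 times the first, so no common change can be given. The fitted log2 fold change of 0.65 (SE 0.26, adjusted p = 0.167) became -0.042 without *Tet2/3* DKO replicate 2 and 1.12 without replicate 1. *Itga6* per 100 *Itgb1*, by RPKM, was 31.4, 32.3 and 26.8 in WT against 14.8 and 6.19 in *Tet2/3* DKO libraries.

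*Itga1* (ENSMUSG00000042284, chromosome 13 from 114953096 to 115101964, minus strand) encodes α1, a collagen receptor chain of effector and tissue-resident T cells. Its 9, 4 and 5 counts in WT against 0 and 5 in *Tet2/3* DKO mice were too few to test. The count of 0 in *Tet2/3* DKO replicate 1 allows a level of up to 0.143 CPM.

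*Itgal* (ENSMUSG00000030830, chromosome 7 from 127296260 to 127335138, plus strand) and *Itgb2* (ENSMUSG00000000290, chromosome 10 from 77530252 to 77565708, plus strand) encode the chains of LFA-1. *Itgal* had 3379, 3596 and 2912 counts in WT against 3623 and 3035 in *Tet2/3* DKO mice, or 131, 152 and 106 CPM against 173 and 170. Both *Tet2/3* DKO mice were above WT, but the change of 0.40 (SE 0.14, 95% interval 0.10 to 0.71, adjusted p = 0.109) did not pass. *Itgb2* had 31953, 29294 and 30556 counts against 22639 and 19239, or 1236, 1234 and 1113 CPM against 1079 and 1076, both just below WT. Its change was -0.15 (SE 0.08, 95% interval -0.33 to 0.04, adjusted p = 0.334), the smallest of the 9 genes. Per 100 RPKM of *Itgb2* there were 4.91, 5.70 and 4.43 of *Itgal* in WT against 7.44 and 7.33 in *Tet2/3* DKO libraries (exact permutation p = 0.1, the smallest possible).

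*Itgb3* (ENSMUSG00000020689, chromosome 11 from 104608000 to 104670476, plus strand) encodes β3, the partner of αv and, in platelets, of αIIb. It had 1318, 1328 and 1243 counts in WT against 486 and 336 in *Tet2/3* DKO mice, or 51.0, 56.0 and 45.3 CPM against 23.2 and 18.8. The groups were clearly apart. *Itgb3* was 2.41-fold lower in *Tet2/3* DKO cells (log2 fold change -1.27, SE 0.15, 95% interval -1.60 to -0.94, adjusted p = 0.00108). As for *Itga6*, the call was lost narrowly without WT replicate 1 or 2 (adjusted p = 0.0106 and 0.0124). Nearest in profile were *Cd6*, *Cd5* and *Cd101*, at root mean square differences of 0.0596, 0.0744 and 0.0872. *Cd5*, a surface protein that dampens T cell receptor signals, had between 886 and 941 CPM in WT against 404 and 344 in *Tet2/3* DKO libraries.

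Platelets are known to be rich in β3. The 8 platelet and megakaryocyte markers summed to between 0.437 and 0.735 CPM in WT and to 0.286 and 0.671 in *Tet2/3* DKO libraries. *Gp9*, *Gp1bb* and *Treml1* had no count in any library, and *Itga2b*, the gene of αIIb, had 2, 9, 2, 1 and 1. In the same libraries *Itgb3* had 18.8 CPM or more. The part of platelets in the level of *Itgb3* was not tested.

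*Itgav* (ENSMUSG00000027087, chromosome 2 from 83724397 to 83806916, plus strand) encodes αv. It had 135, 204 and 130 counts in WT against 269 and 160 in *Tet2/3* DKO mice, or 5.22, 8.60 and 4.74 CPM against 12.8 and 8.95. The lower *Tet2/3* DKO mouse was scarcely above WT replicate 2, and the change of 0.84 (SE 0.28, 95% interval 0.20 to 1.48, adjusted p = 0.109) did not pass. Per 100 RPKM of *Itgb3* there were 5.63, 8.44 and 5.74 of *Itgav* in WT against 30.4 and 26.2 in *Tet2/3* DKO libraries, a ratio in which *Itgb3* was lower and *Itgav* higher. Of the exon bases of *Itgav* 5.90% overlap the noncoding *Gm13684*.

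**Figure D2:**
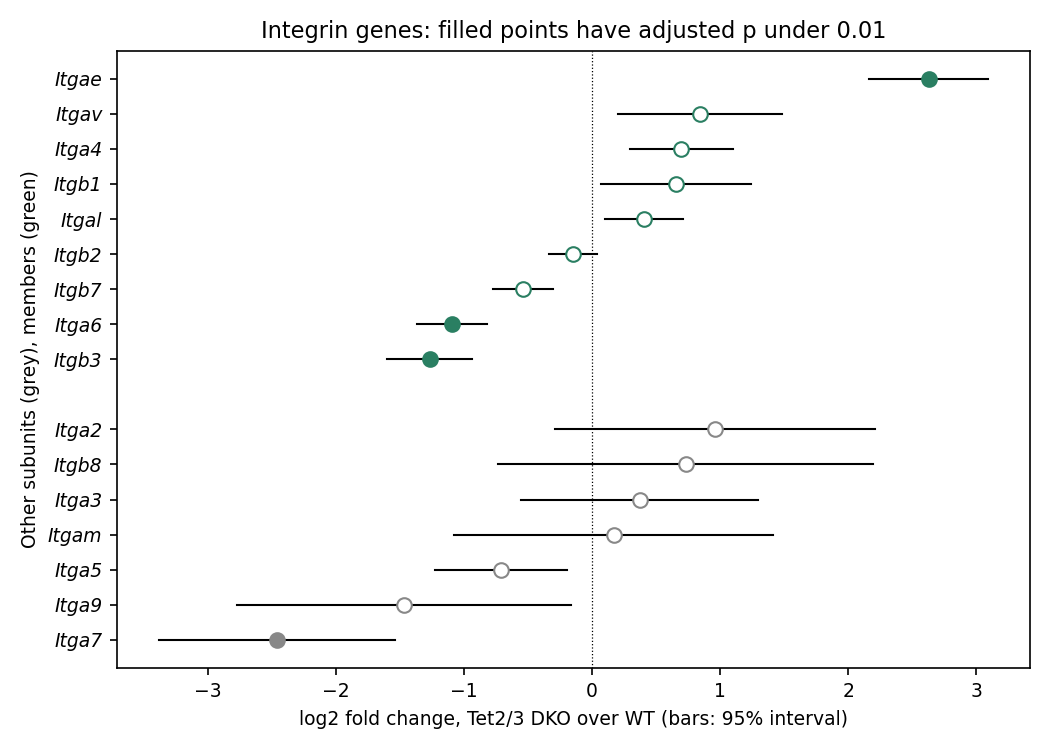
Log2 fold changes of *Tet2/3* DKO over WT (points) with 95% intervals (bars) for the 9 tested integrin genes in green and 7 further integrin subunits in grey, filled where the adjusted p is under 0.01. *Itgae* at 2.63 is the only filled point on the right, with *Itga6*, *Itgb3* and *Itga7* filled on the left.

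Summed over the 6 alpha genes, transcripts came to 28.9, 33.4 and 25.5 RPKM in WT against 43.1 and 39.3 in *Tet2/3* DKO libraries. The make-up of that sum differed. *Itgae* was 2.92, 4.40 and 3.78% of it in WT against 16.1 and 16.5% in *Tet2/3* DKO libraries, and *Itga6* went the other way, from 16.5, 14.4 and 17.4% to 5.26 and 5.35%. *Itgal* remained the main part at means of 67.1 and 63.5% (exact permutation p = 0.3). The 4 beta genes summed to 894 ± 73.8 RPKM (SD, n = 3) and 711 ± 2.72 (SD, n = 2; exact permutation p = 0.2). *Itgb7* was on average 53.5% of that sum in WT and 46.4% in *Tet2/3* DKO cells, and *Itgb7* and *Itgb2* together made up at least 94.8% in every library. Measured per longest transcript, *Itgae* was 3.12 and 14.7% and *Itga6* 23.8 and 8.42% of the alpha sum. The length used changes the size of these shares. It could not reverse their directions, because *Itgae* rose most and *Itga6* fell most among the 6 alpha genes.

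**Figure D3:**
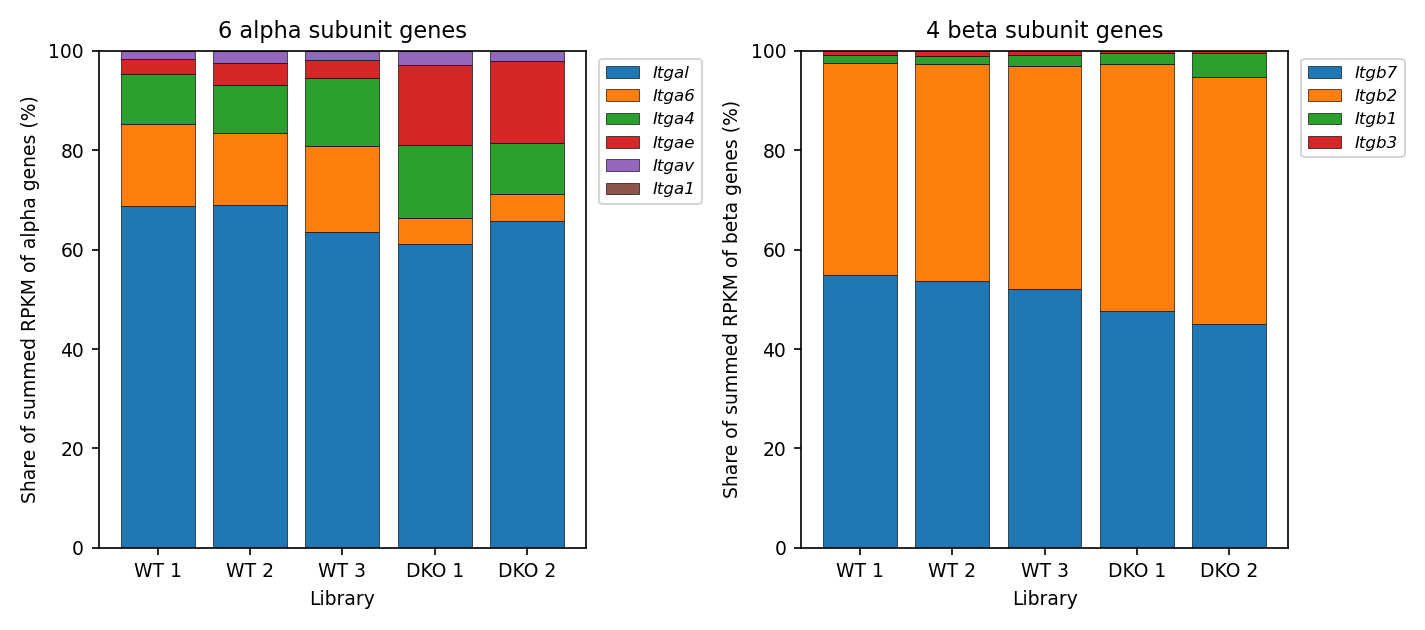
Share in percent of the summed RPKM of the 6 alpha genes (left) and 4 beta genes (right) in each library, as stacked bars. In the left panel the *Itgae* band widens from a mean of 3.70% in WT to 16.3% in *Tet2/3* DKO cells and the *Itga6* band narrows from 16.1 to 5.31%.

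The stability of these changes differed between genes. Leaving out any library kept *Itgae* between 2.47 and 2.89, *Itga6* between -1.16 and -1.06 and *Itgb3* between -1.43 and -1.14. *Itgb1* was the only one of the 9 to change sign. Without *Tet2/3* DKO replicate 1, 1 of the 2 libraries whose sex does not match the label, *Itgae* changed by 2.57, *Itga6* by -1.16 and *Itgb3* by -1.43, and without WT replicate 1, the other such library, the same genes changed by 2.47, -1.08 and -1.26.

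**Figure D4:**
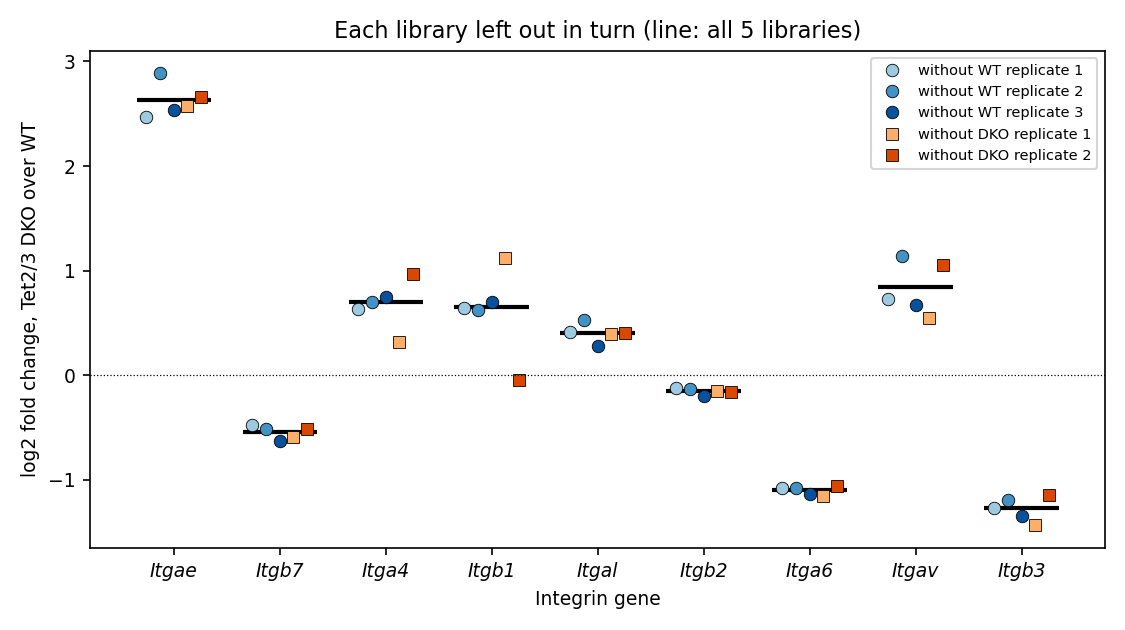
Log2 fold change of each integrin gene with all 5 libraries (line) and after dropping 1 library at a time (points). *Itgb1* spans -0.042 to 1.12 depending on which *Tet2/3* DKO library is left out, while the points of *Itga6* lie between -1.16 and -1.06.

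Markers of other cells were read beside these results. The 2 genes that define CD8 T cells summed to between 68.8 and 77.1 CPM in WT and to 34.3 and 35.8 in *Tet2/3* DKO libraries. Of these, *Cd8b1* fell in *Tet2/3* DKO cells (1729, 1564 and 1967 counts against 599 and 484, log2 fold change -1.29, adjusted p = 0.000168), and *Cd8a* had 70, 69 and 148 counts against 121 and 155 (log2 fold change 0.94, adjusted p = 0.128), so the pair did not move together. *Foxp3*, the regulatory T cell factor, fell (log2 fold change -1.31, adjusted p = 0.00191) and was the only one of 7 regulatory T cell genes past the threshold. These 7 summed to between 376 and 441 CPM in WT and to 282 and 324 in *Tet2/3* DKO libraries. *Tnfrsf18* made up the largest part of that sum, at 185 to 244 CPM in WT against 161 and 147 in *Tet2/3* DKO libraries. *Ctla4* (30.9 and 72.9 CPM), *Il2ra* (11.4 and 38.3) and *Ikzf2* (43.2 and 18.3) were split between the *Tet2/3* DKO mice. The part of CD8 or regulatory T cells in the level of *Itgae* was not tested.

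The γδ T cell, NK cell and myeloid lists had higher summed levels in the *Tet2/3* DKO libraries. Of the 5 γδ T cell genes 3 rose, all constant segments of the γ chain, and the list's sum went from between 28.5 and 30.5 CPM to 235 and 376. *Trdc*, the constant segment of the δ chain, had 302, 279 and 457 counts against 384 and 273. As CPM these are 11.7, 11.8 and 16.7 against 18.3 and 15.3 (log2 fold change 0.33, adjusted p = 0.377). *Sox13*, a γδ lineage factor, lay lower at 28, 25 and 26 counts against 5 and 4 (log2 fold change -2.12, adjusted p = 0.0361). NK cell genes summed to between 4.29 and 4.68 CPM in WT and to 10.9 and 32.1 in *Tet2/3* DKO libraries, with 2 of 4 tested past the threshold (*Ncr1* and *Klrb1c*). *Klrk1* was split between the *Tet2/3* DKO mice, at 1.55, 2.02 and 2.08 CPM against 1.05 and 9.51 (adjusted p = 0.262). *Tyrobp* lay above WT, at 0.309, 0.927 and 0.838 CPM against 1.33 and 2.46 (adjusted p = 0.116). Myeloid and dendritic genes summed to between 9.26 and 15.7 CPM against 27.5 and 57.1, led by *Lyz2* at 279, 246 and 160 counts against 390 and 759 (adjusted p = 0.0142). Of the 6 genes of this list tested by edgeR 0 passed, and 5 had an unadjusted p under 0.05, beside 23.0% of all genes tested. By DESeq2 0 of 7 passed. *Itgam* lay within WT at 15, 15 and 7 counts against 10 and 11. *Csf1r* had 7, 2 and 1 counts against 15 and 19 (adjusted p = 0.0294) and *Adgre1* 0, 4 and 1 against 25 and 7. Of genes that define dendritic cells, *Siglech* had 0 counts in each WT library against 8 and 5, *Itgax* and *Clec9a* had at most 2 in any library, and *Xcr1* had 18, 15 and 19 counts against 38 and 35 (adjusted p = 0.0341). The sort was for live CD4+ TCRβ+ CD8- cells and is given as over 98% pure. Which other cells remained was not measured. The part of γδ T, NK or myeloid cells in the rise of *Itgae* was not tested. Thymic epithelium genes summed to between 30.1 and 33.6 CPM against 30.5 and 49.6, mostly from *Epcam* and *Ly75*, while *Psmb11* (39, 22 and 18 counts against 1 and 0) and *Krt8* (20, 46 and 27 against 4 and 4) lay lower. B cell genes summed to between 5.61 and 6.96 against 9.11 and 8.62, and erythroid genes to at most 0.336 CPM in any library. The 8 endothelium and fibroblast genes summed to between 147 and 183 CPM in WT and to 112 and 139 in *Tet2/3* DKO libraries, nearly all from *Pecam1*, which T cells also express, and 4 of them had no count in any library. Among 10 genes of mature and memory T cells *Cxcr3* and *Ly6c2* rose and *Ccr7* and *S1pr1* fell. These 4 are 40% of the list, beside 3.92% of all genes tested. DESeq2 called 7 of the 10, where it called 6.91% of all genes.

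Outside the 10, 17 further integrin subunit genes were listed and 7 had enough reads to test. *Itga7*, which encodes the laminin receptor chain α7, fell as *Itga6* did. It had 132, 224 and 257 counts in WT against 29 and 27 in *Tet2/3* DKO mice, a log2 fold change of -2.46 (SE 0.41, adjusted p = 0.00614) that missed the threshold without WT replicate 2 or 3 (adjusted p = 0.0433 and 0.0378) and with replicate numbers as a block (adjusted p = 0.0103). *Itga5*, the fibronectin receptor chain, had 161, 148 and 177 counts against 89 and 61 (log2 fold change -0.71, adjusted p = 0.0973). *Itga2*, *Itga3* and *Itgb8* were the others to reach 1 CPM in a library, with log2 fold changes of 0.96, 0.37 and 0.73 and adjusted p of 0.349, 0.660 and 0.566. *Itgb6* had no count in any library.

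The genes around the integrins were read from 4 lists, of ligands, of activation from inside the cell, of signalling after binding and of the TGF-β pathway. With the further subunits they held 102 tested genes, of which 4 rose and 5 fell, or 8.82% beside 3.92% of all genes tested, with a median log2 fold change of 0.01 beside 0.0076. By list the share was 14.3% of the further subunits (1 of 7), 10% of the ligands (1 of 10), 11.4% of inside-out activation (4 of 35), 3.125% of outside-in signalling (1 of 32) and 11.1% of the TGF-β pathway (2 of 18), each from few genes.

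Of 10 tested ligand genes 1 rose. *Icam1*, the ligand of LFA-1, had 681, 695 and 846 counts in WT against 1566 and 1111 in *Tet2/3* DKO mice (28.8 ± 2.28 against 68.4 ± 8.84 CPM, log2 fold change 1.25, SE 0.12, adjusted p = 0.000444), and it stayed past the threshold with each library left out. *Cdh1*, which encodes the E-cadherin bound by αE, was low and variable, at 8, 17 and 7 counts against 47 and 12 (adjusted p = 0.110). *Spp1*, which encodes the αv ligand osteopontin, had 3, 4 and 5 counts in WT against 42 and 6734 in *Tet2/3* DKO mice (adjusted p = 0.0121), so its level was set by replicate 2.

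Of 35 tested genes of inside-out activation, by which a T cell receptor or chemokine signal opens an integrin for binding, 4 fell and the other 31 did not pass. *Rasgrp2* (CalDAG-GEFI), an exchange factor that loads Rap1, fell, with 9238, 7152 and 8922 counts against 4095 and 2959 (log2 fold change -0.86, SE 0.11, adjusted p = 0.00167). *Rasa3*, which encodes a GTPase-activating protein for Ras and Rap1 and so acts against *Rasgrp2*, fell too (-0.78, adjusted p = 0.00269). *Prkd2*, a kinase gene, fell by 0.65 (adjusted p = 0.00254), and *Cytip*, which encodes a cytohesin-binding protein known to loosen LFA-1 adhesion, fell by 0.64 on the log2 scale (adjusted p = 0.00812). The genes of the core machinery did not pass. *Tln1* (talin) was at -0.12 (adjusted p = 0.529), *Fermt3* (kindlin-3) at -0.12 (adjusted p = 0.497) and *Rap1b* at -0.10 (adjusted p = 0.534). Without 1 WT library, *Rasgrp2*, *Prkd2* and *Cytip* missed the threshold whichever was left out, at adjusted p up to 0.0432, and *Rasa3* did so without replicate 1 or 2. *Cytip* also missed it with the block (adjusted p = 0.0113).

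Of 32 tested genes of outside-in signalling 1 rose, or 3.125%, which is not above the 3.92% of all genes tested. *Lyn*, a Src family kinase known from B and myeloid cells, had 0, 12 and 13 counts in WT against 70 and 104 in *Tet2/3* DKO mice (log2 fold change 3.77, SE 0.57, adjusted p = 0.00387), and the summed level of the myeloid and dendritic list, given above, was higher in the same libraries with no gene of it past the threshold by edgeR. The part of B or myeloid cells in the level of *Lyn* was not tested. Its call was lost with DESeq2 (adjusted p = 0.104) and with edgeR's legacy moderation (adjusted p = 0.0127). *Rac2*, the main Rac gene of leukocytes, was at -0.02 (adjusted p = 0.951).

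Of 18 tested genes of the TGF-β pathway 2 rose. *Tgfbr1*, the type I receptor gene, had 217, 179 and 254 counts in WT against 365 and 287 in *Tet2/3* DKO mice (log2 fold change 0.99, SE 0.16, adjusted p = 0.00614). *Pmepa1*, a target gene of the pathway that feeds back on it, had 170, 129 and 187 against 369 and 288 (1.42, SE 0.17, adjusted p = 0.00140). *Tgfb1*, the ligand gene, lay lower at 1725, 1786 and 2299 counts against 1036 and 846 (-0.64, adjusted p = 0.0117), as did the feedback genes *Skil* (-0.39, adjusted p = 0.0338) and *Smad7* (-0.33, adjusted p = 0.315). *Smad3* was at 0.07 (adjusted p = 0.868) and *Tgfbr2* at -0.23 (adjusted p = 0.412). *Tgfbr1*, *Pmepa1* and *Lyn* missed the threshold without any 1 of the WT libraries, at adjusted p between 0.0137 and 0.0453. *Tgfbr1* also missed it with first-strand counts (adjusted p = 0.0168) and with the block (adjusted p = 0.0255).

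**Figure D5:**
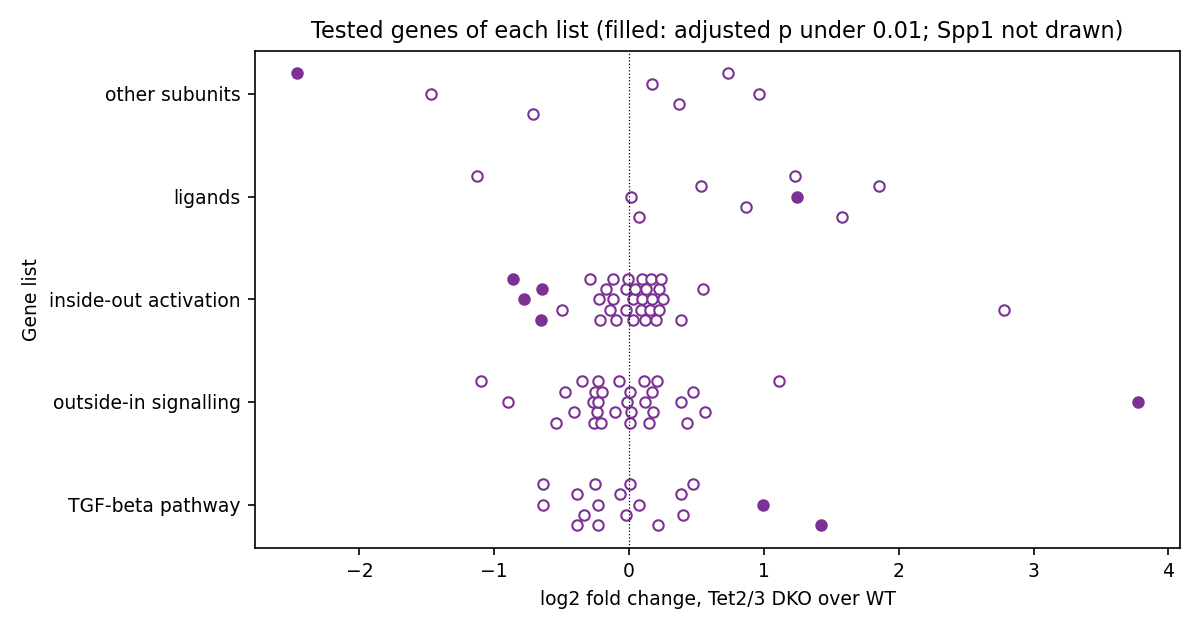
Log2 fold change of every tested gene in the further subunits, the ligands, inside-out activation, outside-in signalling and the TGF-β pathway, filled where the adjusted p is under 0.01; *Spp1* at 10.19 is off the scale and not drawn. Filled points lie to the left in inside-out activation (4 genes) and to the right in the TGF-β pathway (2 genes).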

How the data were processed

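The authors trimmed reads with fastp 0.21.0, aligned them with STAR 2.7.5a to mm10 and deposited counts of reads per gene for each library, without normalization, and reads over several places or genes were left out. The tool versions are from the submitters' processing notes. Deposited T cell receptor clonotype tables were not used here. Counts without regard to strand, the kit marking none, were TMM-scaled, filtered by filterByExpr and entered into the quasi-likelihood test of edgeR 4.0.16 (Benjamini-Hochberg adjustment over 13525 genes, threshold 0.01) in R 4.3.3. Standard errors come from the F statistic. DESeq2 1.42.0, the tool the paper used, other scalings, filters and strands, and leaving out each library were alternatives. Leaving out a *Tet2/3* DKO library leaves 1, assumed to vary like the WT libraries.

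GENCODE M21 (GRCm38) held 55227 of the 55487 gene identifiers and gave positions and exon lengths. Groups are from the sample titles, and the mice are separate animals. Replicate numbers 1 and 2 occur in both genotypes but come from different mice. The members and lists were chosen with earlier results of these data known. All 10 integrin genes are given, with list genes past the threshold (at most 6 per list by p), further subunits with at least 1 CPM in any library, and for each integrin gene past the threshold the 3 tested genes nearest in profile. Other genes are named for their role, after their values were seen. Reads carry no molecular identifiers, so floors (3 counts) cover counting error only.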

Additional observations from a re-analysis of the deposited data

How the results depend on the processing

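Over 9 tested integrin genes and 16 alternatives, 126 of the gene-by-alternative results kept their direction and their side of the threshold, 13 passed it newly, 4 fell short of it and 1 reversed. The reversal was *Itgb1*, which ranged from -0.042 to 1.12 on the log2 scale over the libraries left out (-0.042 without *Tet2/3* DKO replicate 2), and the 4 were *Itga6* and *Itgb3* without WT replicate 1 or 2. DESeq2 called 1027 genes, 5 integrin genes (*Itgb7* and *Itga4* added) and 15 genes of the other lists, and an adjusted p of 0.05 gave 1173, 5 and 16. Leaving out 1 library gave between 110 and 1311 genes, 1 and 5 integrin genes, and 1 and 20 genes of the other lists. The lowest counts came without a WT library and the highest without a *Tet2/3* DKO library. A fit with 1 *Tet2/3* DKO library takes its spread from the WT libraries alone, so its counts are not like the others. How far this set the counts was not tested. With the longest transcript as length, 2 of the 10 genes changed place in the WT order. For *Itgal* and *Itgav* (both adjusted p = 0.109) no change was called, which does not show that their levels were equal.

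The replicate block (same numbers in both genotypes treated as pairs) called 358 genes, 4 integrin genes (*Itgb7* added, -0.62, adjusted p = 0.00400) and 7 of the other lists. Deviations of same-numbered libraries from their group means correlated at 0.0151 and 0.00446. With 2 *Tet2/3* DKO libraries these deviations mirror each other, so the values are not independent checks. The mice are different animals and no label ties the numbers together, so the libraries were not treated as pairs.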
